A study of Mus musculus with 6 samples.

Results

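The genes described here are canonical transcriptional targets of p53: Cdkn1a, Mdm2, Ccng1, Bax, Perp, Phlda3, Zmat3, Trp53inp1, Btg2 and Plk2. They were followed through every probe set, a group of short probes summarised to 1 value, whose annotation names exactly 1 gene symbol and that symbol is a member. This gave 17 probe sets for 9 of the 10 genes, out of 18193 genes named on the array; Bax was not analysed here. Expression was measured in embryonic mouse hearts on Affymetrix 3' arrays at E12.5 in the C57BL/6 strain. There were 3 arrays labelled Rhau KO, which the labels give as hearts with a deletion of Rhau (now Dhx36), and 3 arrays labelled wildtype, the controls. The labels name no other treatment. Dhx36 is an RNA helicase that unwinds G-quadruplexes, stacked structures of guanine-rich RNA and DNA. The sources used here do not give the allele, what drives the deletion or the deleted exons. The series text reads as if each array carried RNA of 1 heart.

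p53 is a transcription factor that is kept at a low level by the ubiquitin ligase Mdm2 and is stabilised by DNA damage, ribosomal stress and other insults. It then binds a response element made of repeated copies of a short palindrome and activates genes for cell cycle arrest, DNA repair, apoptosis and its own feedback control. In the embryo excess p53 activity is harmful to several tissues, the heart among them, and deletion of Mdm2 is lethal unless p53 is also lost.

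A close match to the response element can be read in promoters of Cdkn1a and Ccng1. Cdkn1a was called lower under the Rhau KO label on 1 of 2 tested probe sets and Ccng1 on 1 of 3. RefSeq promoter windows of GRCm38.p6, 250 bases before to 50 after a transcription start, were held for 6 of the 9 genes, in 7 windows. They are shown 5′ to 3′ on the gene's strand, with the stretch closest to the p53 response element consensus in capitals. That consensus was searched without a spacer; it is its own reverse complement, so 1 search covers both strands. The Cdkn1a window is chr17:29090729-29091028 on the plus strand, and the Ccng1 window is chr11:40755237-40755536 on the minus strand.
Cdkn1a, upstream start: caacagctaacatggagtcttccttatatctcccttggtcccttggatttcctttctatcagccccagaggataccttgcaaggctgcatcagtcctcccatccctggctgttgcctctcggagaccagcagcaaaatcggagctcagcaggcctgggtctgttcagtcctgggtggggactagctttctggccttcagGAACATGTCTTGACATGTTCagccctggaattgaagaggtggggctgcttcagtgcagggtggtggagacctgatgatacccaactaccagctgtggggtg
Ccng1: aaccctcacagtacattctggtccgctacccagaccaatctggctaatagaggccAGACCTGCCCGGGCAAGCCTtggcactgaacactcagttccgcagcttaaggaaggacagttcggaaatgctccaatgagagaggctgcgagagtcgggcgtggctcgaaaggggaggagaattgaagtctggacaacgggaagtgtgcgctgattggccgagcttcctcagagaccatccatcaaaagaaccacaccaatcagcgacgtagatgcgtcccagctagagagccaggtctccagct
Each capitalised stretch matched the consensus at 19 of 20 letters, which 29 of the 32851 windows of all genes (0.0883%) reached or exceeded. The Cdkn1a stretch lies 51 to 32 bases before its start, and that start lies 2790 bases upstream of the other Cdkn1a start. The Ccng1 stretch lies 195 to 176 bases before the start. The best stretch in the Btg2 window matched 16 of 20 letters, a level reached in 30.2% of all windows. Those of Mdm2, Phlda3, Plk2 and the downstream Cdkn1a start matched 15 of 20 letters, reached in 76.6% of windows. A match is a description of these letters only, and binding was not measured. Each window holds 300 bases, so a weak best match does not show that a gene lacks an element elsewhere.

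Because the helicase concerned acts on guanine-rich structures, the same windows were searched on both strands for 4 runs of GGG separated by 1 to 7 bases. The pattern was present in 18.5% of all windows and in 2 of the 7 member windows, those of Btg2 and Phlda3. They are shown on the gene's strand with the runs in capitals, which in Phlda3 are read as CCC because the guanines lie on the opposite strand.
Btg2: GGGcGGGgcggagaGGGgcGGG
Phlda3: CCCactgcagCCCcgCCCcccggggCCC
The Btg2 stretch lies 115 to 94 bases before the start and the Phlda3 stretch 66 to 39 bases before it. Both lie upstream of the start, so they are not part of these transcripts.

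The arrays had been scaled alike, with a trimmed mean signal of 500 on each. Medians on the log2 scale were 6.75 to 6.80 under the Rhau KO label and 6.68 to 6.74 under the wildtype label, without overlap. Dhx36 went against the labels: its 3 probe sets were higher in the arrays labelled Rhau KO by 1.41 (SE 0.109), 1.10 (SE 0.117) and 0.90 (SE 0.0907), all called by limma with adjusted p of at most 2.67e-04 (n = 3 each). A probe set outside the deleted part would check nothing. Groups are named by their labels throughout, and if the labels were exchanged every rise and fall given here would turn round; this was not tested. Each Y-linked transcript was taken relative to the array where it was highest. Their mean stood at 59.6%, 82.8% and 100% under the Rhau KO label and at 1.23%, 2.04% and 39.3% under the wildtype label. Xist, also relative to its highest array, stood at 61.1%, 35.8% and 0.232% under the Rhau KO label. Under the wildtype label it stood at 100%, 98.0% and 77.2%. Replicates 1 and 2 labelled Rhau KO and replicate 3 labelled wildtype thus carried both kinds of transcript and are called the mixed arrays below. RNA of 1 embryo would not be expected to hold both, so what each of these arrays stands for as 1 of n = 3 is not settled by the labels. Over all probe sets 1824 rose and 1858 fell, so 49.5% of calls were higher, and with each array centred on its median 28.5% were. The p-values measure only the spread between these arrays.

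The p53 targets did not move as a block. Of the 17 probe sets, 14 passed the filter on low signal (mean log2 signal of at least 5.90 over the 6 arrays). Among them 2 rose, 4 fell and 8 were not called at an adjusted p below 0.05. This is 42.9% of 14, where 13.6% of the 27022 probe sets tested were called, 6.75% higher and 6.88% lower. The members were chosen with earlier results of these data known, so the 42.9% is no independent result. Trp53inp1 and Plk2 rose and Cdkn1a, Ccng1, Perp and Phlda3 fell, each on 1 probe set. The folds were small, from 1.18 to 1.43, beside a median fold of 1.35 among all called probe sets. The median difference of the 14 was -0.06 on the log2 scale, against 0.04 over all tested probe sets. Groups did not overlap on 8 of the 14 probe sets, or 57.1%, where 33.9% of all tested probe sets did not overlap. Once Y-linked transcripts entered the fit as a covariate, 0 probe sets were called higher and 0 lower; among the 3 mixed arrays 1 was called higher and 0 lower. At an unadjusted limma p below 0.05 these were 2 higher and 2 lower under the covariate, and 2 higher and 3 lower among the mixed arrays. The share of all tested probe sets at that threshold was not taken in these fits, so these counts have no comparison. Over all tested probe sets the covariate left 28 higher and 110 lower, where 1824 and 1858 were called without it. Y-linked signal was higher in every array labelled Rhau KO than in any labelled wildtype, so covariate and label overlap. The SE of Cdkn1a on 1424638_at was 0.257 with the covariate and 0.114 without it. A lost call under the covariate is thus no measure of a smaller difference. For the members, the higher count was 1 when each array except replicate 2 labelled Rhau KO was left out. The lower count was 1 when wildtype replicate 2 was omitted, 3 when Rhau KO replicate 1 was omitted and 2 when any other single array was omitted.

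**Figure D1:**
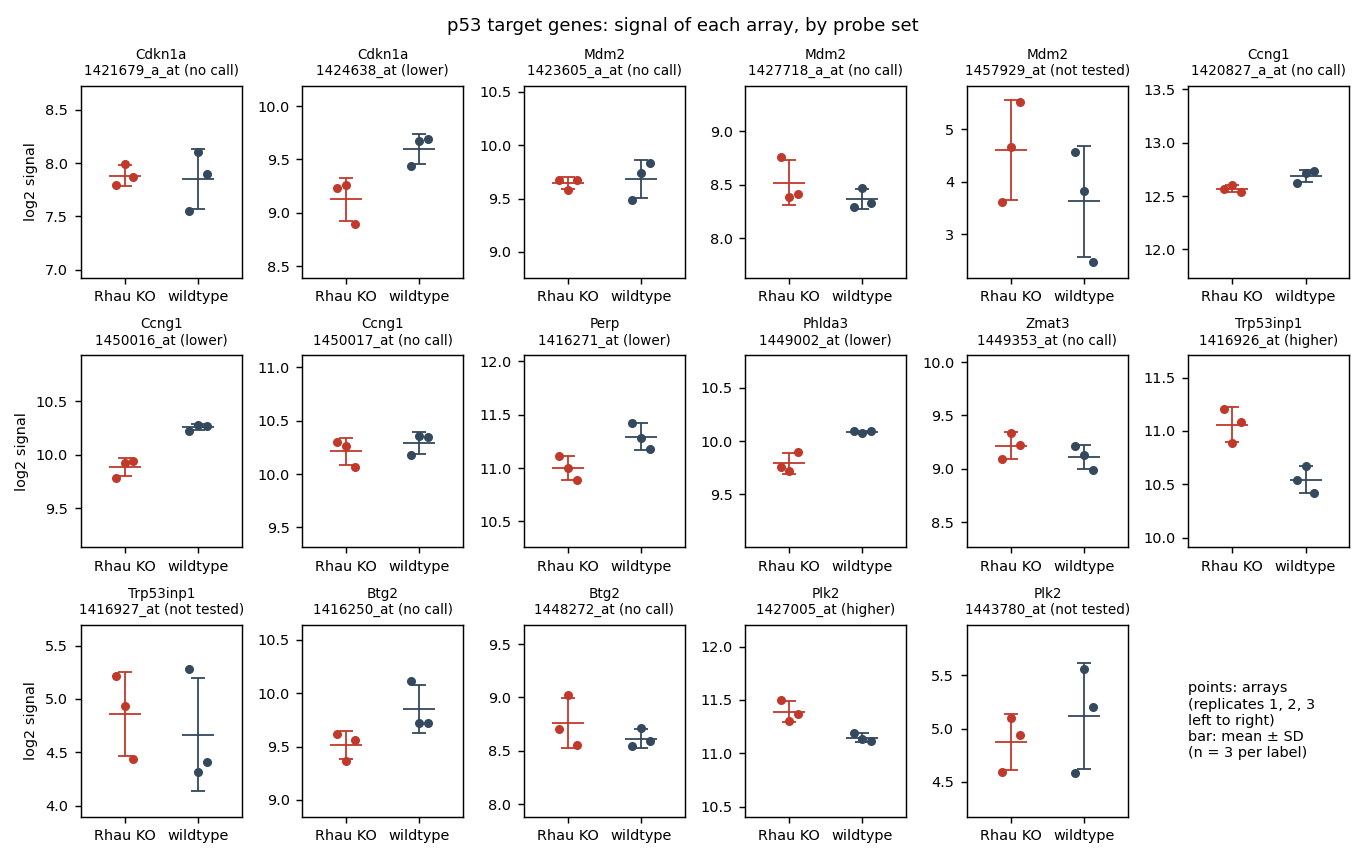
Log2 signal (vertical axis) of each of the 17 probe sets in the 3 arrays labelled Rhau KO (left, red) and the 3 labelled wildtype (right, blue-grey); points are arrays and bars mean ± SD. The 6 called probe sets show separate groups, and the 3 probe sets marked not tested lie below 5.90 on average and scatter widely; vertical scales differ between panels.

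Among the genes of cell cycle arrest, Cdkn1a encodes p21, the inhibitor of cyclin-dependent kinases through which p53 stops the cell cycle. On its brighter probe set, 1424638_at, log2 signal was 9.23, 9.26 and 8.89 in the arrays labelled Rhau KO, against 9.44, 9.67 and 9.69 in the arrays labelled wildtype. All 3 arrays labelled Rhau KO lay below all 3 labelled wildtype, and replicate 3 labelled Rhau KO was the lowest. The difference was -0.47 (SE 0.114, 95% interval -0.72 to -0.22), a 1.39-fold lower signal with adjusted p = 0.0211 (limma, n = 3 each). The other probe set, 1421679_a_at, did not show it: 7.80, 7.99 and 7.87 under the Rhau KO label lay inside the range of 7.55, 8.10 and 7.90 under the wildtype label, with a difference of 0.03 (95% interval -0.31 to 0.38, adjusted p = 0.911). The suffix a marks probes that match several transcripts of the same gene. Whether the 2 probe sets differ from each other was not tested. The Cdkn1a call was lost without replicate 3 labelled Rhau KO (-0.36, adjusted p = 0.0532), without replicate 2 labelled wildtype (adjusted p = 0.0771) and without replicate 3 labelled wildtype (adjusted p = 0.0763). Averaging both probe sets gave -0.22 with adjusted p = 0.282.

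Btg2, an antiproliferative protein that binds the CCR4-NOT deadenylase, likewise had probe sets that pointed apart. On 1416250_at the signal was 9.62, 9.37 and 9.56 in the arrays labelled Rhau KO and 10.12, 9.72 and 9.72 in the arrays labelled wildtype. The groups did not overlap, but the difference of -0.34 (SE 0.115, 95% interval -0.59 to -0.08) had adjusted p = 0.0818 and was not called. With the replicate number as a block it was called (SE 0.0863, limma adjusted p = 0.0370), the only 1 of 19 other settings to do so. On 1448272_at the signal was 8.70, 9.02 and 8.56 under the Rhau KO label and 8.54, 8.71 and 8.59 under the wildtype label, which overlap. Its difference was 0.15 (95% interval -0.13 to 0.43, adjusted p = 0.486).

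The feedback genes of p53 differed in their calls. Ccng1 encodes cyclin G1, which recruits the phosphatase PP2A to Mdm2, and its promoter window holds the close match to the consensus printed above. On 1450016_at its signal was 9.79, 9.93 and 9.94 in the arrays labelled Rhau KO, against 10.23, 10.28 and 10.27 in the arrays labelled wildtype. The wildtype arrays lay within a narrow band above every array labelled Rhau KO. The difference was -0.37 (SE 0.0690, 95% interval -0.53 to -0.22), 1.30-fold lower with adjusted p = 0.00576, and it stayed between -0.40 and -0.33 with a call when any 1 array was left out. On the brightest probe set, 1420827_a_at, the signal was 12.57, 12.60 and 12.54 under the Rhau KO label and 12.63, 12.71 and 12.73 under the wildtype label. These groups did not overlap either, yet the difference of -0.12 (95% interval -0.23 to -0.01) had adjusted p = 0.129. With each array centred on its median it was -0.19 with a call (limma adjusted p = 0.0400). The remaining probe set, 1450017_at, overlapped between labels and differed by -0.08 (95% interval -0.26 to 0.10, adjusted p = 0.577). The mean of all 3 Ccng1 probe sets was lower by a called -0.19 (adjusted p = 0.0414).

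Mdm2, the ubiquitin ligase that marks p53 for degradation, was not called on either tested probe set. On 1423605_a_at the signal was 9.68, 9.58 and 9.68 in the arrays labelled Rhau KO and 9.48, 9.74 and 9.83 in the arrays labelled wildtype. The arrays labelled Rhau KO lay inside the wildtype range, and the difference was -0.04 (95% interval -0.25 to 0.17, adjusted p = 0.829). On 1427718_a_at the signal was 8.76, 8.38 and 8.42 under the Rhau KO label and 8.30, 8.47 and 8.33 under the wildtype label. Only replicate 1 labelled Rhau KO stood above the wildtype range on this probe set, and the difference was 0.16 (95% interval -0.12 to 0.43, adjusted p = 0.453). The third probe set, 1457929_at, lay below the filter, at 3.61, 4.66 and 5.52 under the Rhau KO label and 4.57, 3.83 and 2.47 under the wildtype label, and was not tested.

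Both membrane-associated members fell. Perp encodes a tetraspan membrane protein of desmosomes that p53 induces during apoptosis. Its single probe set had signals of 11.11, 11.00 and 10.89 in the arrays labelled Rhau KO, against 11.43, 11.28 and 11.18 in the arrays labelled wildtype. The groups did not overlap, though the highest array labelled Rhau KO and the lowest labelled wildtype were close. The difference was -0.29 (SE 0.0779, 95% interval -0.47 to -0.12), 1.23-fold lower with adjusted p = 0.0319. The call was lost without replicate 2 or 3 labelled Rhau KO (-0.29 and -0.24) and without replicate 1 or 2 labelled wildtype (-0.23 and -0.30). Fitted with the Y-linked covariate, the Perp difference was 0.04 (SE 0.132). Since Perp is also an epithelial gene, markers of liver, lung and gut epithelium are given beside it. Epcam, a pan-epithelial adhesion gene, differed by -0.74 (adjusted p = 0.0713), with all arrays labelled Rhau KO below all labelled wildtype. Ttr differed by -0.41 (limma adjusted p = 0.169) and Foxa2 by -0.21 (adjusted p = 0.758), both with overlapping groups. The list had 0 of 3 tested genes called and a median of -0.41. Its summed linear signal was 350 to 485 under the Rhau KO label and 457 to 556 under the wildtype label. Afp, Alb and Nkx2-1 lay below the filter and were not tested, at differences of 1.16, 0.15 and -0.94. What part these markers have in the Perp result was not tested.

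Phlda3 encodes a small protein with a pleckstrin homology domain that competes with the kinase Akt for membrane lipids. Its signal was 9.76, 9.72 and 9.90 in the arrays labelled Rhau KO and 10.09, 10.07 and 10.09 in the arrays labelled wildtype. The wildtype arrays were nearly alike, and all arrays labelled Rhau KO lay below them. The difference was -0.29 (SE 0.0717, 95% interval -0.45 to -0.13), 1.23-fold lower with adjusted p = 0.0228. The call held without replicate 3 labelled Rhau KO (-0.35) and was lost when any other array was left out, at differences from -0.30 to -0.26 and adjusted p from 0.0632 to 0.0718.

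The 2 members that rose were Trp53inp1 and Plk2. Trp53inp1 encodes a stress-induced protein that promotes p53 activity and autophagy. Its signal on 1416926_at was 11.20, 10.88 and 11.09 in the arrays labelled Rhau KO, against 10.54, 10.67 and 10.41 in the arrays labelled wildtype. Every array labelled Rhau KO lay above every array labelled wildtype. The difference of 0.52 (SE 0.0908, 95% interval 0.32 to 0.72), 1.43-fold higher with adjusted p = 0.00449, was the largest among the tested member probe sets. It remained called when any 1 array was left out, at 0.44 to 0.60, and among the 3 mixed arrays (0.63, adjusted p = 0.0297). Fitted with the Y-linked covariate it was 0.80 (SE 0.181, adjusted p = 0.107). Its mean with the probe set below the filter gave 0.36 (adjusted p = 0.222). That probe set was dim, at 4.86 ± 0.40 under the Rhau KO label and 4.67 ± 0.53 under the wildtype label (mean ± SD, n = 3 each).

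Plk2, a polo-like kinase of centriole duplication, had signals of 11.50, 11.30 and 11.37 in the arrays labelled Rhau KO and 11.19, 11.13 and 11.11 in the arrays labelled wildtype. The groups were separate, with the wildtype arrays close together. The difference was 0.24 (SE 0.0629, 95% interval 0.10 to 0.38), 1.18-fold higher with adjusted p = 0.0284. The call held without replicate 2 labelled Rhau KO (0.29) and was lost when any other array was left out, at 0.19 to 0.27. Under median centring it was 0.17 without a call. The other Plk2 probe set, below the filter, gave a mean over both of 0.00099 and was at 4.87 ± 0.26 under the Rhau KO label and 5.12 ± 0.49 under the wildtype label. Zmat3, an RNA-binding zinc finger protein, had signals of 9.09, 9.34 and 9.22 in the arrays labelled Rhau KO and 9.22, 9.13 and 8.99 in the arrays labelled wildtype. These ranges overlapped, and the difference was 0.11 (95% interval -0.11 to 0.32, adjusted p = 0.511).

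**Figure D2:**
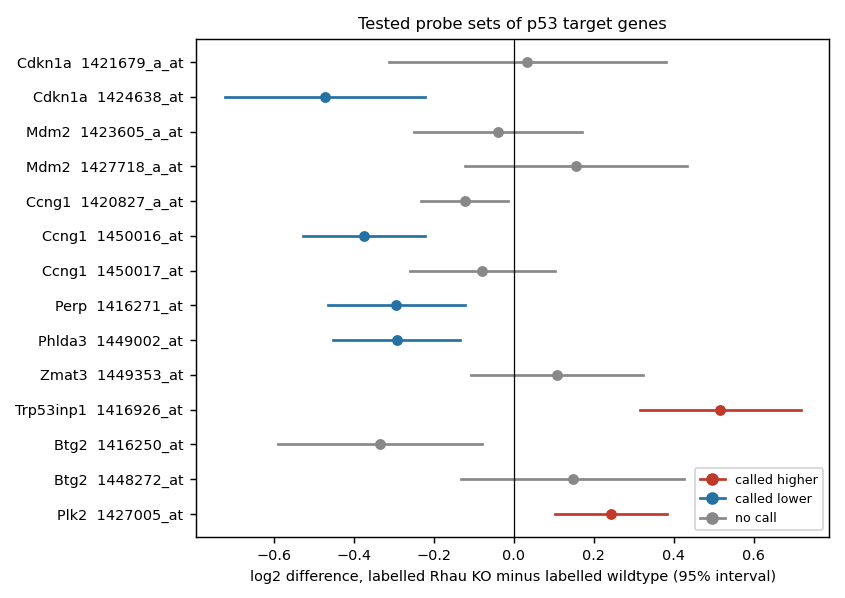
Log2 difference, labelled Rhau KO minus labelled wildtype (horizontal axis), of the 14 tested probe sets, with 95% intervals; colours mark the calls. Trp53inp1 at 0.52 and Plk2 at 0.24 lie to the right of 0, Cdkn1a, Ccng1, Perp and Phlda3 between -0.47 and -0.29 to the left, and genes with several probe sets spread across both called and uncalled values.

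The other known p53 targets gave a similarly mixed picture. Of 47 further targets listed, 45 were named on the array and 40 passed the filter by their brightest probe set. Among these 2 rose, 6 fell and 32 were not called, or 20%, where 16.5% of the 12416 genes tested this way were called (6.77% higher and 9.75% lower). Groups did not overlap for 16 of the 40, where 37.1% of all genes tested this way did not overlap. The median difference of the list was -0.04, against 0.01 over all tested genes. Ak1, an adenylate kinase, showed the largest called difference, at 11.44, 11.47 and 11.44 in the arrays labelled Rhau KO and 12.03, 12.02 and 12.05 in the arrays labelled wildtype (-0.58, SE 0.0478, adjusted p = 5.34e-05). Its second, dim probe set was not called (-0.18). Gpx1, a glutathione peroxidase, fell by 0.43 (adjusted p = 0.00510), and Thbs1, the matrix protein thrombospondin, by 0.30 (adjusted p = 0.0108). The other Thbs1 probe set was not called (-0.21). Sesn1, a sestrin that restrains mTORC1, fell by 0.38 on 1433711_s_at (adjusted p = 0.00870) and by 0.30 on 1454699_at (adjusted p = 0.0238), while 1438931_s_at (-0.50) and 1444376_at (0.37) were not called. The suffix s marks probes that also match transcripts of other genes.

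The genes that rose in this list were Rrm2b, the p53-inducible ribonucleotide reductase subunit, and Btg1, a relative of Btg2. Rrm2b was at 9.37, 9.38 and 9.28 in the arrays labelled Rhau KO and 9.06, 9.06 and 8.97 in the arrays labelled wildtype, 0.31 higher (SE 0.0800, adjusted p = 0.0279). The other Rrm2b probe sets that passed the filter differed by 0.35 and 0.43 without a call. Btg1 was 0.27 higher on its brightest probe set (adjusted p = 0.0359). Its other probe sets differed by 0.09 (adjusted p = 0.443) and 0.04 (adjusted p = 0.903), and the mean over all by 0.14 (adjusted p = 0.291). With each wildtype array left out in turn, 0 genes of the list rose, and leaving out an array labelled Rhau KO left 1. Median centring left 0 that rose. Some targets with a role in apoptosis had no call: Bbc3 (Puma) differed by 0.10, Pmaip1 (Noxa) by -0.45 and Fas by 0.19. These genes are named outside the naming rule, after their values were seen, and Perp, also induced in apoptosis, was called lower.

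Among genes that control p53, of 35 listed, 33 were named on the array and 30 passed the filter; 3 rose, 9 fell and 18 were not called. The called share was 40%, of which 30% lower and 10% higher, beside 9.75% lower and 6.77% higher over all tested genes, and the median difference was -0.01. The list was chosen with earlier results of these data known, so this share is no independent result about the control of p53. The lower count was 1 with the Y-linked covariate and 5 with averaged probe sets, without the eBayes trend or among the mixed arrays. Kat5 (Tip60), which acetylates p53, was at 9.77, 9.83 and 9.94 in the arrays labelled Rhau KO and 11.44, 11.48 and 11.39 in the arrays labelled wildtype, 3.01-fold lower (-1.59, SE 0.0643, adjusted p = 9.95e-07). Rchy1 (Pirh2), a p53 ubiquitin ligase that is itself a p53 target, was at 10.98, 10.90 and 11.00 under the Rhau KO label and 11.61, 11.59 and 11.61 under the wildtype label (-0.65, SE 0.0537, adjusted p = 5.72e-05). Daxx, a chaperone that bridges Mdm2 and the deubiquitinase Usp7, fell by 0.60 (adjusted p = 0.00118), and the acetyltransferase gene Ep300 by 0.53 (adjusted p = 0.00180). These 4 genes kept their call when any 1 array was omitted; given the Y-linked covariate only Kat5 of the 4 did.

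The ribosomal protein gene Rpl11 and the nucleolar protein gene Npm1, whose products bind Mdm2 or its inhibitor in nucleolar stress, rose by 0.17 (adjusted p = 0.0309) and 0.16 (adjusted p = 0.0378). The methyltransferase gene Setd7 rose by 0.23 (adjusted p = 0.0364). Under median centring 0 regulators rose, and the same holds when Rhau KO replicate 1 or any single wildtype array was omitted; 1 rose when Rhau KO replicate 3 was omitted. Mdm4, the partner of Mdm2 that also inhibits p53, was at 9.99, 9.93 and 9.86 in the arrays labelled Rhau KO and 9.65, 9.71 and 9.80 in the arrays labelled wildtype. The difference of 0.21 on this probe set was not called (adjusted p = 0.0921), although the groups did not overlap. The remaining Mdm4 probe sets that passed the filter differed by 0.10 and -1.06 without a call. Trp53 itself, which encodes p53, was not analysed here, so the level of the factor's own mRNA is not given.

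**Figure D3:**
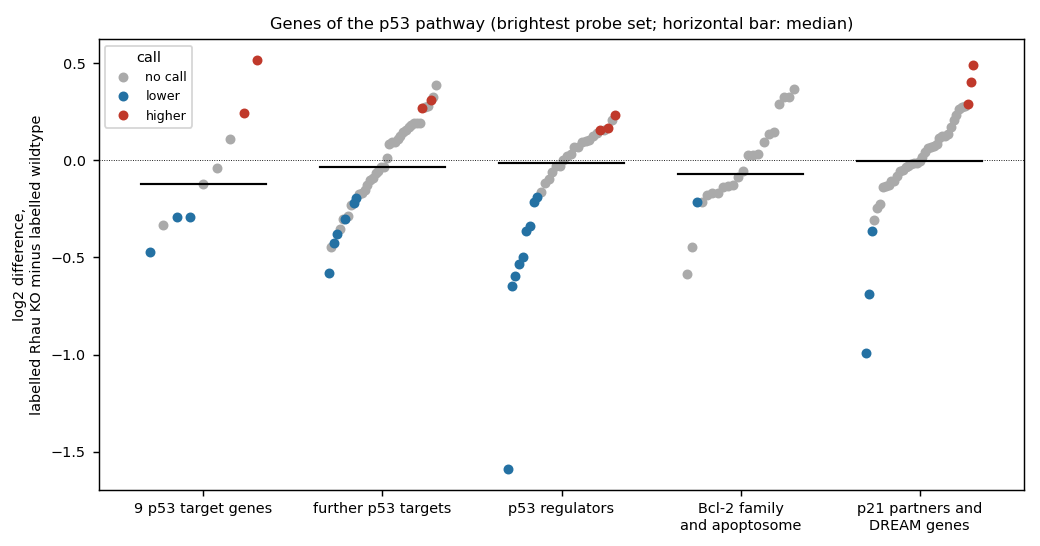
Log2 difference, labelled Rhau KO minus labelled wildtype (vertical axis), of each tested gene by its brightest probe set, for the 9 p53 target genes and the 4 further lists; points are genes in rising order, colours mark calls and horizontal bars are medians. The medians of the 4 further lists lie between -0.07 and 0, and the lowest point is Kat5 at -1.59.

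Downstream of p21 and p53, the Bcl-2 family and apoptosome list held 22 tested genes, of which 0 rose and 1 fell by limma, or 4.55% beside 16.5% of all genes tested this way. At an unadjusted limma p below 0.05 these were 5 higher and 4 lower. The share of all tested genes at that threshold was not taken, so it cannot be set beside the 16.5%. The lower count was 4 under median centring and 0 with quantile normalization, the Y-linked covariate or the mixed arrays alone, where 1 rose. The one that fell was Cycs, the cytochrome c gene, at -0.22 (adjusted p = 0.0209), with further probe sets lower by 0.27 and 0.37 with a call. Replicates 2 and 3 labelled Rhau KO could each be left out with that call kept (1 lower in both), and it was lost without any one of the other arrays. The list of p21 partners and of genes repressed through the DREAM complex had 39 tested genes, with 3 higher and 3 lower, or 15.4% beside the same 16.5%. It also holds other inhibitor genes, such as Cdkn1c and Cdkn2c, and parts of the DREAM complex, such as Lin9 and Lin54. Its counts are thus not of downstream genes alone. The counts were 2 higher and 8 lower under median centring, and 0 higher and 1 lower with the Y-linked covariate. Cdkn1c, the imprinted p57 inhibitor and a relative of p21, rose by 0.49 (adjusted p = 6.86e-04), the helicase subunit gene Mcm2 by 0.40 (adjusted p = 0.00357) and Cdk6 by 0.29 (adjusted p = 0.0476), a call kept only when Rhau KO replicate 2 was the array omitted. Other Cdk6 probe sets differed by 0.17 and 0.26 without a call. The proliferation marker gene Mki67 fell by 0.99 (adjusted p = 2.54e-05), the inhibitor gene Cdkn2c by 0.69 (adjusted p = 5.41e-04) and the cyclin gene Ccnd3 by 0.37 (adjusted p = 9.91e-04). Other Ccnd3 probe sets differed by 0.48, with groups apart, and by -0.44, both without a call, and the mean over all was -0.11 (adjusted p = 0.635). The median log2 differences of these lists were -0.07 and -0.0050. Birc5, Bbc3, Pmaip1 and Apaf1 each stand in 2 lists.

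Marker genes of cell types also moved, and their counts stand beside 6.77% of all tested genes higher and 9.75% lower. Of 7 tested erythroid markers 5 fell and 0 rose, with summed linear signals of 70953 to 88937 under the Rhau KO label and 92791 to 99071 under the wildtype label. Of 8 endothelial and endocardial markers 4 rose and 0 fell, with sums of 12449 to 13544 under the Rhau KO label and 10680 to 11696 under the wildtype label. Of 8 cardiomyocyte markers 0 rose and 2 fell, with sums of 201060 to 229580 under the Rhau KO label and 227210 to 238910 under the wildtype label; all 8 passed the filter on low signal. Macrophage markers had 2 of 8 higher and neuronal and neural crest markers 3 of 5 higher. Of 6 epicardial markers 0 were called, and of 6 fibroblast and mesenchyme markers 1 rose and 1 fell. In whole hearts, fewer cells of a type and less RNA per cell cannot be told apart, and the part of these markers in the p53 target values was not tested.

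**Figure D4:**
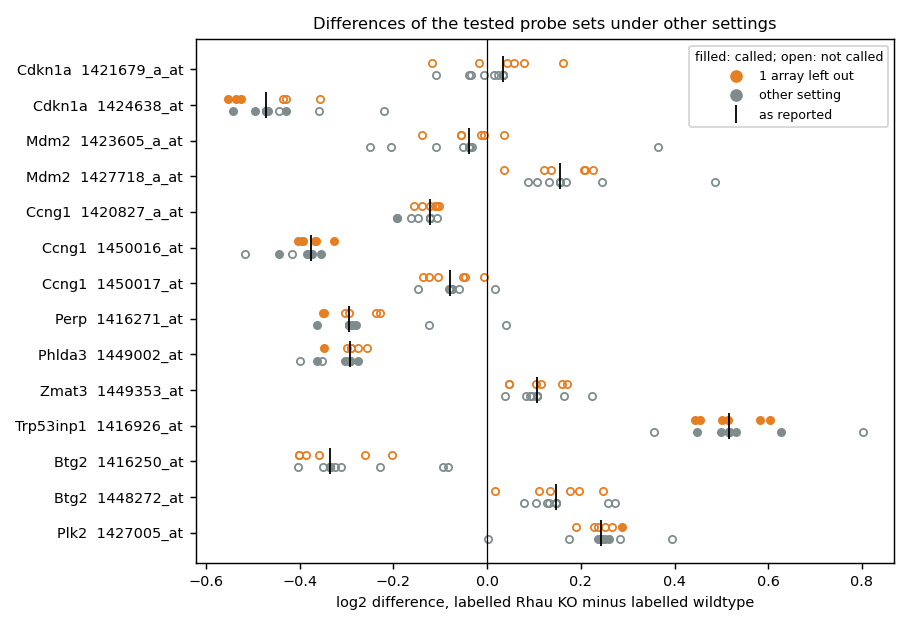
Log2 difference, labelled Rhau KO minus labelled wildtype (horizontal axis), of the 14 tested probe sets under every other setting; black marks are the values as reported, orange points leave out 1 array, grey points are other settings, and filled points passed the test. Ccng1 on 1450016_at and Trp53inp1 stay filled in every orange point, and grey points of Perp and Plk2 reach 0.04 and 0.00099.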

How the data were processed

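Biotin-labelled cRNA was prepared from heart RNA with a 3' IVT kit, per the labels' protocols. Deposited values are 1 log2 signal per probe set and array, made by the authors with MAS5 per the submitters' processing notes (no version is given in the sources used here), whose linear signals had a 2% trimmed mean of 500 on each array. Values were used as deposited, and no column was left over (0). Arrays carry no read depth; their number limits the precision.

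Of 45101 probe sets 64 controls were left out. The platform annotation names 1 gene for 34945, several for 932 and none for 9160. Probe sets in the lowest 40% by mean over 6 arrays (below 5.90) were left out, leaving 27022. Rhau KO minus wildtype was fitted across these probe sets in R 4.3.3 by limma 3.58.1 (eBayes with trend), two-sided, with Benjamini-Hochberg adjustment over all tested probe sets and a threshold of 0.05; lists use each gene's brightest probe set. All members are named, and in each list up to 4 called genes of largest difference in each direction. Members, lists, tests and alternatives were chosen with earlier results of these data known. The procedure was tested on simulated data. Alternatives covered pseudocounts, normalization, filters, gene summaries, variance priors, array weights, a replicate block, a Y-linked covariate, the 3 mixed arrays alone, and leaving out each array. Python 3.11.15, pandas 2.3.3 and matplotlib 3.10.9 were used.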

Additional observations from a re-analysis of the deposited data

How the results depend on the processing

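Of the tested member probe sets 2 rose and 4 fell as reported. The higher count was 1 under median centring, 0 with averaged probe sets, 0 without the eBayes trend, 0 with the Y-linked covariate and 1 over the 3 mixed arrays, and 1 to 2 leaving out 1 array. The lower count was 1 without the trend, 0 with the covariate, 0 over those 3 arrays and 1 to 3 leaving out 1 array. In the 3-array fit the lone wildtype array is assumed to vary like the others.

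Over all probe sets 1824 rose and 1858 fell. Higher calls numbered 1007 under median centring, 1018 with 1 probe set per gene, 608 with averaged probe sets, 886 without the trend, 28 with the covariate and 501 over the 3 arrays; lower calls numbered 824 averaged, 903 without the trend, 110 with the covariate and 515 over the 3 arrays. Leaving out 1 array gave 1046 to 1283 higher and 1139 to 1574 lower. Of the further targets, 2 higher became 0 under median centring, 1 without the filter, 4 with 1 probe set per gene, 1 averaged, 0 without the trend, 0 with the covariate, 0 over the 3 arrays and 0 to 1 leaving out 1 array; 6 lower became 1 without the trend, 1 with the covariate, 2 over the 3 arrays and 4 to 6 leaving out 1 array.

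Perp, called as reported at -0.29, turned to 0.0401 with the covariate. The other turned signs belonged to differences without a call. Cdkn1a 1421679_a_at gave -0.0392 with quantile normalization, -0.0350 under median centring, -0.11 with the covariate, -0.0056 over the 3 arrays and -0.12 to 0.16 leaving out 1 array. Mdm2 1423605_a_at gave -0.14 to 0.0358 leaving out 1 array, and Ccng1 1450017_at 0.0161 with the covariate. The mean over all Mdm2 probe sets was 0.36. It takes in 1427718_a_at (0.16) and 1457929_at (0.98), the latter below the filter. For Mdm4 the mean was -0.0607, where its brightest probe set gave 0.21. That mean takes in 1419558_at (0.10), 1453982_at (0.51, below the filter) and 1458223_at (-1.06). The cause of the signs turned in the other settings was not tested.

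Whether replicate numbers pair the arrays is not given by the labels. Deviations of same-numbered arrays correlated at -0.00028, 0.042 and 0.0055, and those of the other pairs at -0.045 to 0.037. Such values cannot exclude a pairing. With the replicate block 1684 probe sets rose and 1760 fell, and of the members 2 rose and 5 fell. With 3 arrays per label, small differences of dim probe sets could not be resolved.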
